A study of Mus musculus with 24 samples.

Results

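Glutathione S-transferases were followed in the liver of young mice that had eaten glucose and galactose (GLU+GAL) or glucose alone (GLU) after weaning. The 10 genes were those of the alpha class (Gsta2, Gsta3 and Gsta4), the mu class (Gstm1, Gstm2, Gstm3 and Gstm4), the pi class (Gstp1) and the theta class (Gstt1 and Gstt3) that carry these names on the array. They were chosen by name, with earlier results of these data known. They are 10 of 37008 named genes on the array and 10 of 18634 genes that passed the filter on low signal.

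Glutathione S-transferases are the liver's phase II enzymes that join the tripeptide glutathione to reactive electrophiles, such as drug metabolites, epoxides and products of lipid peroxidation, which are then exported and broken down to mercapturates. The cytosolic enzymes form dimers within a class, and classes differ in the substrates they accept. Alpha and mu class enzymes are abundant in hepatocytes, and many of their genes are induced through the antioxidant-sensing factor NRF2 or through xenobiotic receptors.

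All mice were C57BL/6JRcc, labelled female, and entered the diets at weaning at 3 weeks of age. Both diets were semi-synthetic, with 16% of energy from fat, 20% from protein, 32% from starch and 32% from monosaccharides. The monosaccharides were glucose and galactose in equal parts in the GLU+GAL group (12 mice) and glucose only in the GLU group (12 mice). After 3 weeks, at postnatal day 42 and in the light phase, the mice were killed after food had been withheld, and RNA of the right liver lobe was hybridised to 2-colour arrays, 1 array per mouse. The RNA of each mouse carried Cy5, and a pool of the Cy3-labelled RNA of the mice was the common partner on every array. Values below are log2 ratios of mouse over pool, where 0 is an equal normalised signal in both dyes and 1 is a 2-fold higher Cy5 signal. Since no array had the dyes swapped, a shift of a gene's ratios in all mice cannot be told apart from a dye effect. The ratio of Alb, for example, had means of 0.90 in GLU+GAL and 1.07 in GLU mice. Because each gene is set against its own probe in the pool, the ratios compare mice within a gene and do not order genes by abundance.

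The arrays lay on 3 slides of 8, each with 4 mice of either diet and scanned as a set. Between 46.6% and 51.3% of features were well above background in the mouse channel. All 7 hepatocyte markers were measured, Alb and Apoa1 among them. No gene differed between diets at an adjusted p under 0.05 in limma (lowest adjusted p = 0.522), while 802 of 18634 genes (4.3%) had an unadjusted p under 0.05. On 1 array, GLU+GAL 12, Eif2s3y and Ddx3y, which lie on the Y chromosome, were well above background and Xist was not, against its label. The pool channel of GLU+GAL 4 stood apart from the others, with a median correlation of 0.980 to the other arrays, against at least 0.994 on the remaining arrays. The differences of Gsta2, Gstm2 and Gstp1 are also given without each of these arrays, and the ranges over single omitted mice cover the other genes.

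Each of the 10 probes was well above background on 24 of 24 arrays and saturated on none. A single spot was left out as an outlier for Gsta3 (GLU+GAL 11) and for Gstm3 (GLU 6), so these genes rest on 11 mice in that diet. On the mm9 coordinates of the array design, the alpha class probes lie on chromosome 9 (Gsta2 and Gsta4) and chromosome 1 (Gsta3), those of Gstm2, Gstm3 and Gstm4 on chromosome 3, that of Gstp1 on chromosome 19, and both theta probes on chromosome 10. The brighter Gstm1 probe lists Gstm1 transcripts but is placed on chr5:117082490-117082549, whereas the second Gstm1 probe is placed on chr3:107815595-107815654. In bulk liver, fewer cells of a type and less RNA per cell cannot be told apart.

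Several of these genes have close copies, and the probe letters show how near the copies are. The probe of Gsta2 (chr9:78178856-78178915, mm9, minus strand) begins almost like that of Gm10639, a neighbour in the alpha cluster of chromosome 9. The first 30 bases of both are shown, with the single differing base in capitals, followed by the longest run that both probes share (bases 24 to 53 of 60).
Gsta2: gccacagatactggcctctaatTgtttgca
Gm10639: gccacagatactggcctctaatGgtttgca
shared run: gtttgcaattataaaatacaattgttgatt

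Over bases 1 to 53, counted from the 5′ end, the 2 probes differ by T23G alone. Gsta1 and Gm3776, further genes of that cluster in RefSeq, have no probe under those names. The signal called Gsta2 is therefore that of Gsta2 or of such a copy.

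The Gstp1 probe (chr19:4037306-4037365, mm9, minus strand) is shown because its listed transcripts belong to both Gstp1 and its neighbour Gstp2. The probes of Gsta4 (chr9:78046172-78047344, plus strand) and Gstm4 (chr3:107846495-107846847, minus strand) are shown because their 60 bases span 1173 and 353 bases of the genome, across a splice junction.
Gstp1: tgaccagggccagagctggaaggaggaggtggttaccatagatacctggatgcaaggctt
Gsta4: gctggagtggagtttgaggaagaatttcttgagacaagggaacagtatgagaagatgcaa
Gstm4: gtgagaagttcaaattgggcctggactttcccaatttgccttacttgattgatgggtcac

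Gsta2 varied far more between mice than the other transferases. Its log2 ratios had a low of -1.93, a median of -0.85 and a high of 1.74 in GLU+GAL mice, against -2.83, -0.82 and 1.39 in GLU mice. The extremes, GLU+GAL 3 and GLU 5, lay 23.8-fold apart. The groups overlapped over nearly their whole range: 4 of 12 GLU+GAL mice and 1 of 12 GLU mice had a log2 ratio above 0, and the medians differed little. The SD between mice within diets was 1.13, which ranked 15 among 18634 genes, where the median SD was 0.17. In the pool channel alone, where every array held the same RNA, the SD of Gsta2 over the arrays was 0.07, against 1.16 in the mouse channel alone.

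The diet difference of Gsta2 was 0.56 ± 0.42 (SE, n = 12 and 12; GLU+GAL minus GLU, limma adjusted p = 0.999), with a 95% interval of -0.30 to 1.42. It was 0.04, 0.28 and 1.36 within slides 1, 2 and 3, 0.49 without GLU+GAL 4 and 0.53 without GLU+GAL 12. On slide 2 all 8 mice of both diets were low, between -2.83 and -0.76, and the mean was -1.55 ± 0.64, against -0.18 ± 1.00 on slide 1 and -0.55 ± 1.31 on slide 3 (SD, n = 8 each). The pool channel of the same probe deviated by -0.02 on slide 2. What made the slides differ was not tested.

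Gm10639 followed Gsta2 over the 24 mice with r = 0.996 (rho = 0.99), and r = 0.99 after diet and slide means were removed, given as a description with no test. It ran between -2.61 and 1.91, close to the span of Gsta2. In the pool channel the 2 probes correlated at 0.64. Since they differ by 1 base over bases 1 to 53, the 2 signals are not independent.

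Gsta3, which in mice detoxifies the epoxide of aflatoxin, had a low of -0.34, a median of -0.08 and a high of 0.56 in GLU+GAL mice, against -0.33, 0.06 and 0.49 in GLU mice. Gsta4, the alpha enzyme for 4-hydroxynonenal and related lipid aldehydes, had a low of -0.32, a median of -0.01 and a high of 0.46 in GLU+GAL mice, against -0.46, 0.17 and 0.46 in GLU mice. For both genes the 2 diets overlapped throughout. The differences were -0.08 ± 0.11 for Gsta3 and -0.06 ± 0.10 for Gsta4 (SE; limma adjusted p = 0.999 each). A second bright Gsta3 probe followed the first with r = 0.93 and gave a difference of -0.10, while a further, dim probe (above background on 17 arrays) did not follow it (r = -0.004).

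**Figure D1:**
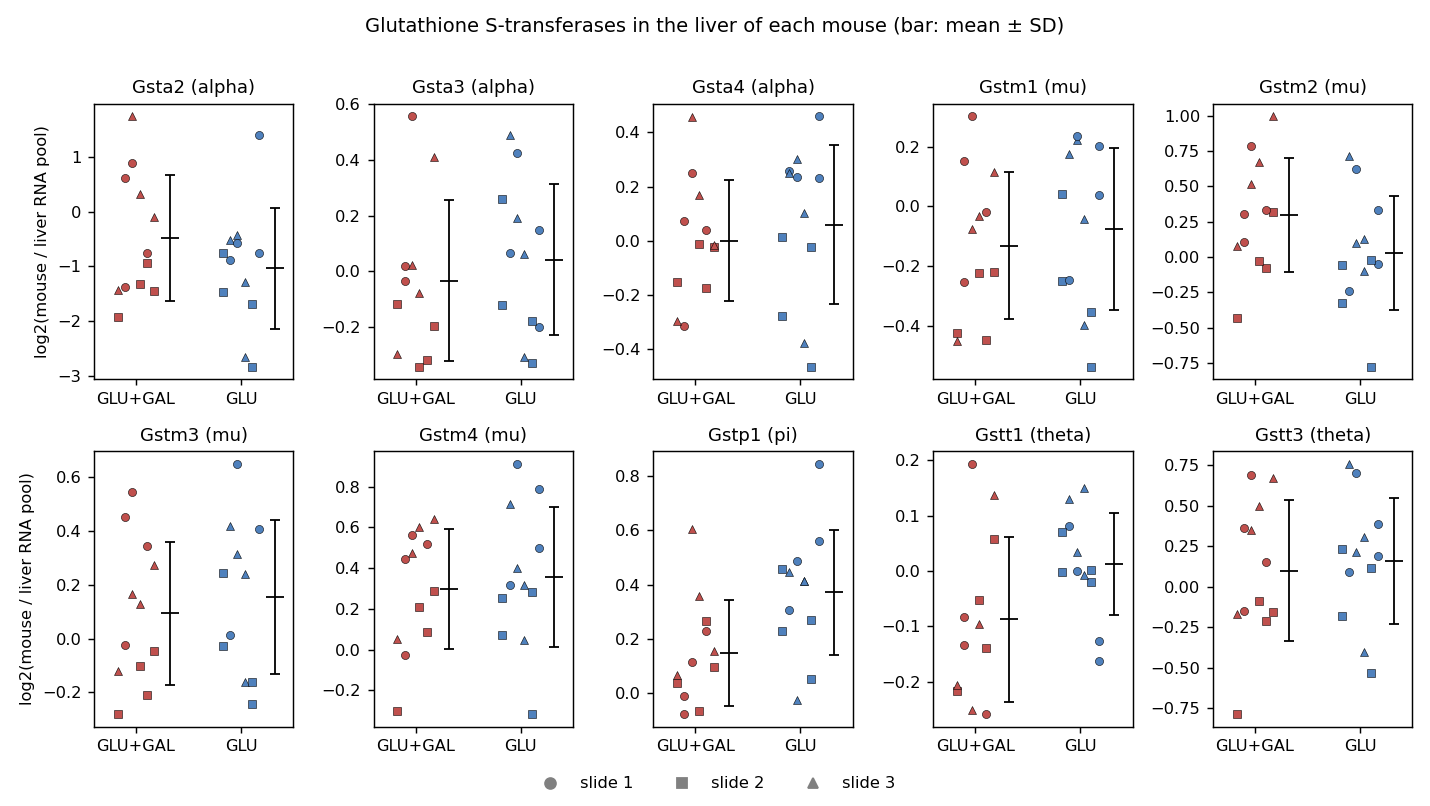
Log2 ratio of each mouse over the liver RNA pool (vertical axes, each with its own scale) for the 10 transferases, GLU+GAL left of GLU; each point is a mouse, its shape the slide, and the bar is the mean ± SD. Gsta2 spans -2.83 to 1.74, while Gstt1 stays between -0.26 and 0.19, and the diets overlap in every panel.

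Among the mu class, Gstm2 had the largest diet difference. Its log2 ratios had a low of -0.43, a median of 0.31 and a high of 0.99 in GLU+GAL mice, against -0.78, -0.03 and 0.71 in GLU mice. Of the 12 GLU+GAL mice, 9 lay above the GLU mean, but the groups overlapped over most of their range. The difference was 0.27 ± 0.15 (SE, n = 12 and 12; unadjusted p = 0.0854, limma adjusted p = 0.999), and it was 0.22, 0.24 and 0.36 within slides 1, 2 and 3. The highest value was that of GLU+GAL 12, and without that mouse the difference was 0.21, while without GLU+GAL 4 it was 0.24. Slide means of Gstm2 were 0.28, -0.17 and 0.39 on slides 1, 2 and 3, and with slide as a block its unadjusted p was 0.0384, while no gene passed the adjusted threshold.

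Gstm1, Gstm3 and Gstm4 had smaller differences between diets. Gstm1 had a low of -0.45, a median of -0.15 and a high of 0.30 in GLU+GAL mice, against -0.54, -0.00 and 0.24 in GLU mice. Gstm3 had a low of -0.28, a median of 0.05 and a high of 0.54 in GLU+GAL mice, against -0.24, 0.24 and 0.65 in GLU mice. In both genes mice of either diet were found at the bottom and at the top.

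Gstm4 had a low of -0.30, a median of 0.36 and a high of 0.64 in GLU+GAL mice, against -0.32, 0.32 and 0.91 in GLU mice. The differences of Gstm1, Gstm3 and Gstm4 were all -0.06, with standard errors from 0.10 to 0.12 and limma adjusted p = 0.999. Their 95% intervals lay between -0.31 and 0.19. For Gstm1 the probe placed on chromosome 3 gave a difference of -0.11 and followed the brighter probe with r = 0.81.

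Gstp1, the single pi class gene here and the transferase best known in mouse liver for its higher level in males, had the smallest unadjusted p of the 10 genes, with a lower mean in GLU+GAL mice. Its log2 ratios had a low of -0.08, a median of 0.10 and a high of 0.61 in GLU+GAL mice, against -0.03, 0.41 and 0.85 in GLU mice. Among GLU+GAL mice, 11 were under the mean of the GLU group, all but GLU+GAL 3. The difference was -0.22 ± 0.08 (SE, n = 12 and 12), with a 95% interval of -0.40 to -0.05, an unadjusted p of 0.0127 and a limma adjusted p of 0.999. It did not pass the correction.

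The Gstp1 difference was uneven over the slides, at -0.49, -0.17 and -0.02 within slides 1, 2 and 3. Without GLU+GAL 12, where the ratio of Gstp1 was 0.16, the difference was -0.22, and without GLU+GAL 4 it was -0.24. Leaving out each mouse in turn gave -0.27 to -0.18, with an unadjusted p between 0.00214 and 0.0270. With Agilent's processed signals the difference was -0.17 (unadjusted p = 0.0942), and in the authors' deposited value table it was -0.18 (unadjusted p = 0.0721).

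Gstp2, measured by a probe of its own, differed by a similar amount: its mean was -0.20 ± 0.15 in GLU+GAL mice and -0.02 ± 0.23 in GLU mice (SD, n = 12 each; difference -0.18 ± 0.08 SE, unadjusted p = 0.0251, limma adjusted p = 0.999). Gstp1 and Gstp2 had r = 0.58 (rho = 0.47) over the 24 mice, untested. Since the Gstp1 probe lists transcripts of both genes, the 2 signals are not independent.

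Markers of 2 cell types had differences in the same direction as Gstp1. All 8 Kupffer cell markers had a lower mean in GLU+GAL mice (unadjusted p under 0.05 for 6), and their summed Cy5 signal ran from 16553 to 31271 in GLU+GAL mice, against 21898 to 38377 in GLU mice. Of 7 hepatocyte markers, 6 had a lower mean (unadjusted p under 0.05 for Hnf4a, Apoa1 and Alb), and their summed signal ran from 1098813 to 1309547 in GLU+GAL mice, against 1146150 to 1285394 in GLU mice. Over all genes tested, 49.2% had a lower mean in GLU+GAL mice, and 2.66% had one with an unadjusted p under 0.05. No marker of either list was absent, and none passed the adjusted threshold. The part of these cells in the Gstp1 difference was not tested. Over the mice, Gstp1 had r = 0.15 with the mean log2 ratio of the Kupffer markers and 0.31 with that of the hepatocyte markers. With the other marker lists its r ran from -0.37 (cholangiocyte) to 0.28 (pancreas), with no test. In the lists for cholangiocytes, endothelial and stellate cells, muscle, kidney and adrenal, pancreas and fat, no measured marker had an unadjusted p under 0.05, and Epcam, Umod, Kap, Prss2 and Pnlip were not well above background on any array. The summed Cy5 signal of the kidney and adrenal list ran from 615 to 2018 in GLU+GAL mice, against 669.8 to 796 in GLU mice, and GLU+GAL 11 was the highest. The same mouse was highest for the fat list (341 to 755 in GLU+GAL mice, against 318 to 535 in GLU mice) and for the endothelial list (13202 to 20230 in GLU+GAL mice, against 12654 to 19534 in GLU mice). The part of these cells in the transferase values was not tested, and without GLU+GAL 11 the Gstp1 difference was -0.23.

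The theta class genes differed in how much they varied. Gstt1, which acts on small halogenated molecules such as dichloromethane, had a low of -0.26, a median of -0.11 and a high of 0.19 in GLU+GAL mice, against -0.16, 0.00 and 0.15 in GLU mice. Its SD between mice was 0.12, smaller than the median over all genes, and 9 GLU+GAL mice were under the mean of the GLU group. The difference was -0.10 ± 0.05 (SE, n = 12 and 12; unadjusted p = 0.0717, limma adjusted p = 0.999). It shrank to -0.03 when the arrays were only centred on their medians and to -0.00 in the authors' deposited value table.

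Gstt3 had a low of -0.78, a median of 0.03 and a high of 0.69 in GLU+GAL mice, against -0.53, 0.20 and 0.76 in GLU mice. Its SD of 0.41 ranked 467 among 18634 genes, and the diets overlapped throughout. The difference was -0.06 ± 0.15 (SE; limma adjusted p = 0.999).

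Over the 10 genes, the diet differences were small beside the spread between mice. Of the 10 genes, 8 had a lower and 2 (Gsta2 and Gstm2) a higher mean in GLU+GAL mice. Over all genes tested, 49.2% had a lower mean. The median difference of the 10 was -0.06, against 0.0012 over all genes tested. With median centring and in the deposited table Gsta3, Gstm1 and Gstm3 had the opposite sign. At an unadjusted p under 0.05 there was 1 of 10 (Gstp1), where 4.3% of all genes had such a p and 2.66% had it with a lower level in GLU+GAL mice. By class, the alpha mean was 0.07 ± 0.51 in GLU+GAL mice and -0.07 ± 0.52 in GLU mice, and the mu mean was 0.01 ± 0.29 in GLU+GAL mice and -0.01 ± 0.31 in GLU mice (SD, n = 12 each, each gene centred on its mean over mice). The theta mean was -0.04 ± 0.26 in GLU+GAL mice and 0.04 ± 0.21 in GLU mice. The class differences of 0.14 (alpha), 0.02 (mu) and -0.08 (theta) were all smaller than the SD between mice, whereas that of the pi class, -0.22 for its single gene, was about as large as it. The alpha value had the sign of Gsta2 (0.56), whereas Gsta3 and Gsta4 were at -0.08 and -0.06, and the mu value had that of Gstm2 (0.27), whereas the other 3 mu genes were at -0.06.

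**Figure D2:**
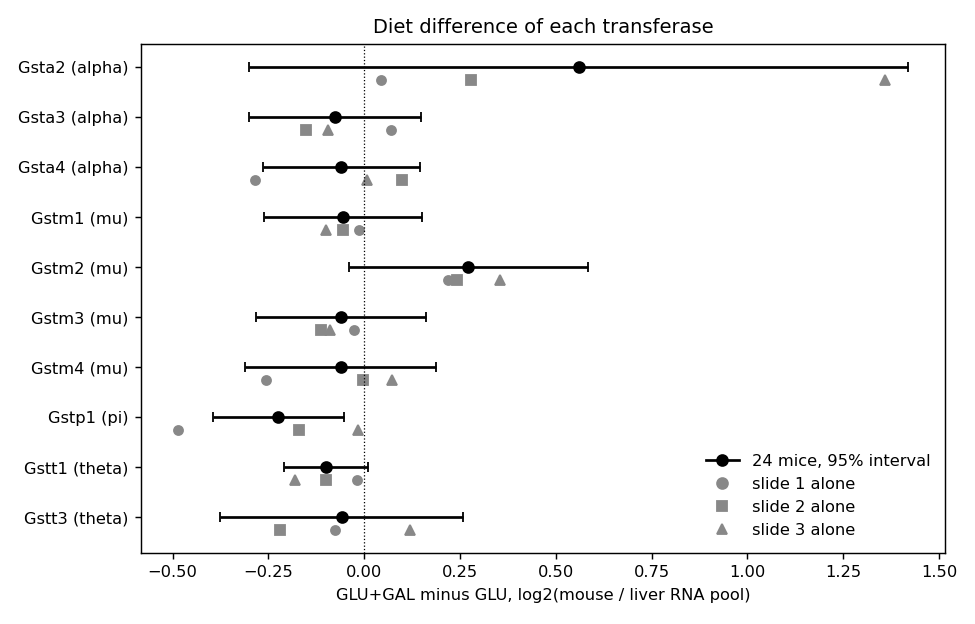
GLU+GAL minus GLU in log2 ratio (horizontal axis) for each transferase, with black points for all 24 mice and bars for the 95% interval, and grey symbols for the 8 mice of each slide alone. The interval of Gstp1 alone lies to 1 side of 0, and the slide values of Gsta2 run from 0.04 to 1.36.

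The genes varied together from mouse to mouse. Over the 45 pairs, the median Pearson r was 0.68, and 31 pairs had an adjusted p under 0.05 (permutation test with 100000 resamples, 2-sided, Benjamini-Hochberg over 45 pairs). Spearman's rho gave 30 such pairs. For comparison, the median r of a transferase with all genes tested was between -0.0007 (Gsta4) and 0.02 (Gsta2). From 0.03% (Gstt1) to 1.53% (Gstm4) of genes had an r over 0.7 with a transferase. Pairs passed at lower values too, and the lowest r that passed was 0.47 (Gsta4 with Gstp1). Of all genes, 4.9% had an r at least that high with Gsta4, and 4.1% with Gstp1. The permutation took mice of all slides as exchangeable, and the count with slide means removed is given below. The pairs that passed lay mostly among the alpha class, the mu class and Gstt3: all 6 pairs within mu passed (median r = 0.84), as did all 12 between alpha and mu (median 0.70), all 3 within alpha (median 0.54) and all 7 of Gstt3 with alpha and mu genes.

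The closest pair was Gstm1 and Gstm3, with r = 0.96 over 23 mice (rho = 0.95, permutation p = 1e-05, the smallest the resamples can give, adjusted p = 4.5e-05). It was 0.96 without the 2 mice farthest from the Gstm1 median, 0.96, 0.95 and 0.96 within slides 1, 2 and 3, 0.96 in GLU+GAL mice and 0.96 in GLU mice. Its points lay along a line from GLU 5 at the bottom to GLU+GAL 9 and GLU 9 at the top, with both diets along its whole length. The Gstm1 probe of this pair is the one placed on chromosome 5, and the second Gstm1 probe followed it with r = 0.81. Whether it also binds transcripts of other mu genes was not tested.

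The next pair crossed classes. Gstm4 and the theta gene Gstt3 had r = 0.92 (rho = 0.91, adjusted permutation p = 4.5e-05), 0.89 without the 2 farthest mice, and 0.82, 0.90 and 0.97 within slides 1, 2 and 3; the genes lie on chromosomes 3 and 10. Within the theta class, Gstt3 and Gstt1 had r = 0.38 (rho = 0.36, adjusted permutation p = 0.0879), which did not pass, with 0.45, 0.73 and 0.40 within the slides. Of its class, Gsta2 had the higher r with Gsta4 (0.78, rho = 0.77, adjusted permutation p = 4.5e-05), at 0.69 without the 2 farthest mice, GLU+GAL 3 and GLU 12, and 0.63, 0.44 and 0.83 within the slides. With Gsta3 its r was 0.54 (rho = 0.65, adjusted permutation p = 0.0116), and 0.36, 0.45 and 0.39 within the slides. Whether these 2 correlations differ was not tested.

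**Figure D3:**
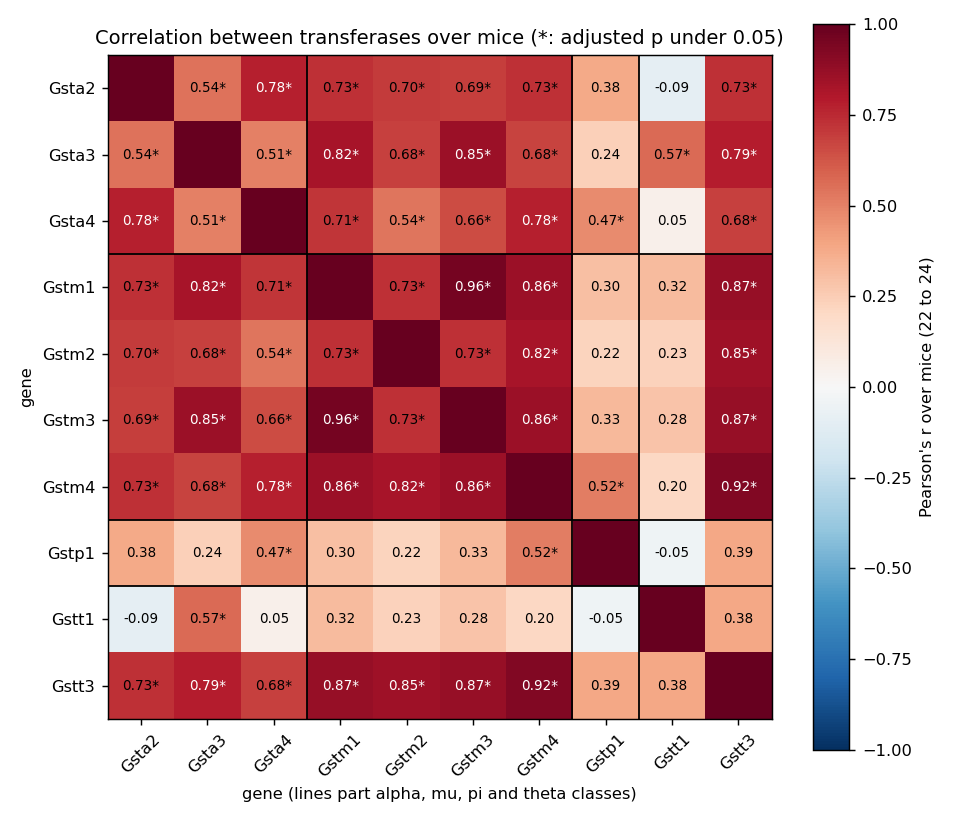
Pearson's r over mice for each pair of transferases (colour and number), with lines between the alpha, mu, pi and theta classes and stars where the permutation p adjusted over 45 pairs is under 0.05. The alpha, mu and Gstt3 rows form 1 block between 0.51 and 0.96, while Gstp1 and Gstt1 have few stars.

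Gstp1 and Gstt1 had fewer pairs that passed. Gstp1 passed with Gsta4 (r = 0.47, rho = 0.40, adjusted permutation p = 0.0284) and Gstm4 (r = 0.52, rho = 0.48, adjusted permutation p = 0.0152), and its median r with the other genes was 0.33. Neither held evenly: with Gsta4 the r was 0.31 without the 2 farthest mice (GLU 5 and GLU 12) and 0.74, -0.10 and 0.29 within the slides, and with Gstm4 it was 0.45 and then 0.65, 0.42 and 0.20. By rho the pair of Gstp1 with Gsta4 did not pass.

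Gstt1 passed with Gsta3 alone (r = 0.57, rho = 0.55, adjusted permutation p = 0.00884; 0.41 without the 2 farthest mice; 0.78, 0.38 and 0.64 within the slides), and its median r was 0.23. The counts of Gstp1 and Gstt1 depended on the scaling of the arrays. With median centring, Gstp1 and Gstt1 each passed with 7 other genes, and in the authors' deposited value table they passed with 5 and 7. With the Cy5 signal alone Gstp1 passed with 4 and Gstt1 with 0. Gstm4, by comparison, passed with 8 or 9 others in each of these settings.

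**Figure D4:**
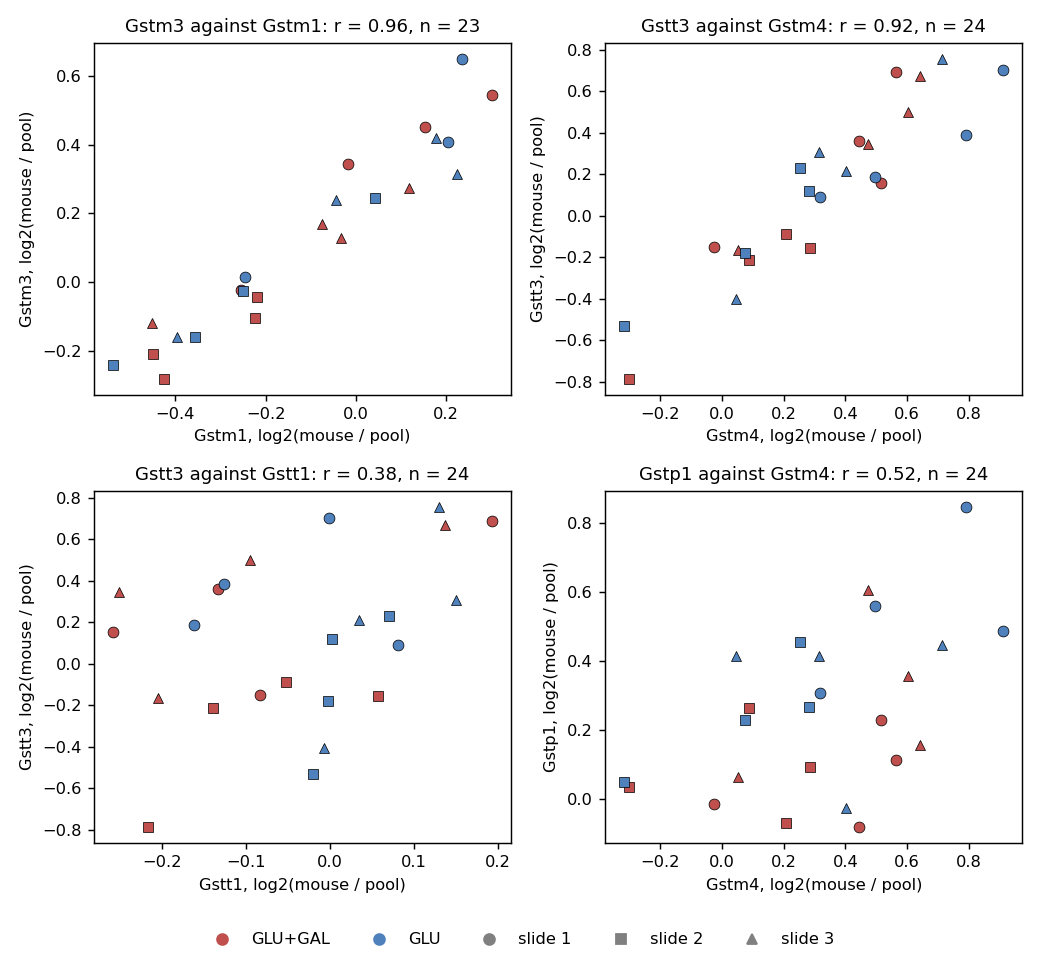
Log2 ratios over the pool of 4 pairs of transferases (both axes), with GLU+GAL in red, GLU in blue and the slide as the shape; each point is a mouse. Gstm3 against Gstm1 (r = 0.96) and Gstt3 against Gstm4 (r = 0.92) fall along a line, and Gstt3 against Gstt1 (r = 0.38) and Gstp1 against Gstm4 (r = 0.52) scatter.

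Slides differed in level, and the number of pairs that passed changed with them. For 9 of the 10 genes, all but Gstt1, slide 2 had the lowest mean of the 3 slides: that of Gstm4, for instance, was 0.07 on slide 2, against 0.50 on slide 1 and 0.41 on slide 3, while its pool channel deviated by -0.02, 0.05 and -0.04 on these slides. With slide means removed, 28 pairs passed. Within slides, with 8 mice each and exact permutation, 3, 2 and 12 pairs passed on slides 1, 2 and 3, although the median r over the 45 pairs was 0.57, 0.62 and 0.59. All 12 pairs between alpha and mu had a positive r on each slide.

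Within diets the median r over the 45 pairs was 0.67 in GLU+GAL mice, with 24 pairs passing, and 0.73 in GLU mice, with 28 pairs passing. In the pool channel, where the arrays differ only by technical spread, the median r over the 45 pairs was -0.03, with a range of -0.60 to 0.71. Since the pool is the same RNA on every array, this channel cannot show technical differences in the RNA or Cy5 labelling of each mouse. The pool SD of the 10 probes over the arrays was at most 0.10. In the mouse channel, normalised by quantiles in the same way, the SD was 0.13 (Gstt1) to 1.16 (Gsta2).

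Set against all other genes tested, several of the transferases were among each other's nearest neighbours. Gstm1, by the probe placed on chromosome 5, and Gstm3 were each the closest of 18633 genes to the other by r. Gstm4 was the closest to Gstt3, and Gstt3 in turn ranked 2 for Gstm4. Of the 10 genes, 9 had another of the 10 among the nearest 1% of genes, and the exception was Gstp1, whose nearest was Gstm4 at rank 498. Among the 9, the nearest of Gsta2 was Gsta4 at rank 64. That of Gstt1 was Gsta3 at rank 53, its only 1 in the nearest 1%. These ranks are descriptions of 24 mice that share slides, with no test.

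Outside the 10 genes, those most like the alpha class mean over 24 mice were Gm10639 (r = 0.98, rho = 0.97), the lipoprotein receptor gene Vldlr (r = 0.90, rho = 0.92), Cth (r = 0.90, rho = 0.87), whose enzyme makes cysteine from cystathionine, and Hnmt (r = 0.88, rho = 0.86), which encodes histamine N-methyltransferase. Gsta2, with an SD of 1.13 against 0.28 for Gsta3 and 0.26 for Gsta4, weighed most in that mean, and with Gsta2 alone r was 0.996 for Gm10639, 0.88 for Vldlr and 0.89 for Cth. The Gm10639 probe is nearly that of Gsta2 over bases 1 to 53, so its signal is not independent of the alpha mean. Those most like the mu class mean were Gstm6 (r = 0.88, rho = 0.88), a further mu gene, Thnsl2 (r = 0.86, rho = 0.82), the hepcidin gene Hamp2 (r = 0.86, rho = 0.88) and Qdpr (r = 0.85, rho = 0.86), whose enzyme regenerates tetrahydrobiopterin. Qdpr and Hamp2 were also among the 4 most like the theta mean (r = 0.82 and 0.81), beside Prodh (r = 0.84, rho = 0.80), which starts proline breakdown, and Haao (r = 0.82, rho = 0.77) of the kynurenine pathway. Gstt3, with an SD of 0.41 against 0.12 for Gstt1, weighed most in the theta mean, and the 2 genes had r = 0.38. With diet and slide means removed, the r of the named genes with the alpha, mu and theta means lay between 0.74 and 0.97.

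The genes most like Gstp1 were different ones: Vamp8 (r = 0.83, rho = 0.78), a protein of vesicle fusion, Acap3 (r = 0.80, rho = 0.75), Ggact (r = 0.78, rho = 0.74), an enzyme that cleaves gamma-glutamylamines, and the small GTPase gene Arl3 (r = 0.77, rho = 0.63). All of these were picked out of 18634 genes by their r, which is therefore given without a test.

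In the rest of the glutathione pathway no gene passed the adjusted threshold either. Of 72 further genes of glutathione synthesis, reduction, conjugation, export, breakdown and regulation, 63 were tested, 26 with a higher and 37 with a lower mean in GLU+GAL mice. At an unadjusted p under 0.05 there was 1 higher (Gstt2) and 3 lower (Glo1, Hnf4a and Gstp2). The share with a lower level at that p in all genes was 2.66%, and with a higher level 1.65%. At any p, 49.2% of all genes had a lower mean in GLU+GAL mice.

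Gstt2, a further theta gene on chromosome 10, differed by 0.23 ± 0.11 (SE, unadjusted p = 0.0452), and unlike Gstt3 it had a negative r with Gstt1 over the mice (-0.45, rho = -0.49, untested). Glo1, which removes methylglyoxal with glutathione, differed by -0.11 ± 0.04, and the hepatocyte factor gene Hnf4a by -0.16 ± 0.07 (unadjusted p = 0.0189 and 0.0227). The haem oxygenase gene Hmox1 (-0.20 ± 0.10) and Cbs, the first enzyme from homocysteine towards cysteine (-0.17 ± 0.09), had the next smallest p, above 0.05. All 6 genes had a limma adjusted p of 0.999, and the NRF2 target Nqo1 differed by -0.02 ± 0.08.

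Of the 5 conjugate exporters all had a lower mean, with Abcc4 at -0.09 ± 0.08 and Abcc2 at -0.02 ± 0.09, and of the 11 peroxidases and reductases 6 had a higher and 5 a lower mean. Glutathione synthesis and supply had 6 of 7 tested genes with a lower mean, Gclm at -0.10 ± 0.06 and Gclc at -0.10 ± 0.09 among them. None of the genes in these 3 groups had an unadjusted p under 0.05. Gss, the glutathione synthetase gene, was chosen after its values were seen: its r with Gstt3 over the mice was -0.78 (rho = -0.73), and -0.81 with diet and slide means removed, with no test.

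The promoters of the 10 genes were searched for 2 motifs on both strands. The RefSeq windows ran from 250 bases before to 50 after the start (GRCm38.p6). Such windows were found for 9 of the 10 genes (12 promoters; Gsta4 had none). The core of the antioxidant response element, TGACNNNGC, was found in Gsta3 alone, 121 bases before the start, and 12.4% of all 32851 promoters hold it. The palindromic site of the hepatocyte factor HNF1 was in none of the 9 and in 3 of all promoters. The Gsta3 match is shown in capitals with the bases around it (chr1:21240439-21240497, GRCm38.p6, plus strand).
Gsta3: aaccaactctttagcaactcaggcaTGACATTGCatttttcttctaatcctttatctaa

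Whether the match has a part in the level or variation of Gsta3 was not tested. The match is a run of letters in a window and says nothing of binding in these livers.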

How the data were processed

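The deposited scanner files hold the intensity of each spot in both channels, which the authors read out with Agilent Feature Extraction (version 10.7.3.1 in the submitters' processing notes). The authors' deposited table holds log2 values; all 24 of its columns were closest to Cy5 of the array they are named for, and their scaling is not stated in the labels or files. The scanner's log10 ratio, also deposited, was not used.

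Mean signals were corrected by normexp (offset 50) and normalised by loess within arrays in limma 3.58.1 (R 4.3.3). Outlier-flagged spots were left out. A probe entered when 6 or more mice of either diet had Cy5 flagged as well above background; each gene was represented by its brightest probe. Diets were compared with lmFit and eBayes over 18634 genes with Benjamini-Hochberg adjustment. Correlations used 100000 permutations. On simulated data of 18634 genes with 200 changed, this fit called 54% of genes changed by 0.3 and 100% of those changed by 0.6 (log2). The changed genes were drawn at random and varied independently, with 185 calls in total, 8 of them false. These rates therefore do not carry over to genes as variable as Gsta2 (SE 0.42) or to data where few genes change. The number of arrays limits the precision.

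The 10 genes, the pathway and marker lists and the naming rule were chosen with earlier results of these data known. Named were all 10 genes, the 6 pathway genes with the smallest p (fewer than 6 had an unadjusted p under 0.05), and the 4 genes most like each class mean. Alternatives covered background, normalisation, filter, probe choice, slide and each mouse left out.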

Additional observations from a re-analysis of the deposited data

How the results depend on the processing

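No gene passed the adjusted threshold with the settings of the report or with the alternatives that kept all 24 mice, and 1 did without GLU 3 (0 to 1 over the 24 omissions). The count of transferases at an unadjusted p under 0.05, 1 as reported, was 0 with Agilent's processed signals, in the deposited table and within slides 2 and 3. It was 2 with slide as a block (adding Gstm2, p = 0.0384), with the replicate number as a block (Gstm2, p = 0.00497) and within slide 1 (Gsta4, -0.28, p = 0.0359), and 1 to 2 when a mouse was left out: Gstm2 was added without GLU 8, GLU 9 or GLU+GAL 1, and Gstt1 without GLU 6, GLU 12, GLU+GAL 6, 9 or 12. Under the replicate block, 1122 genes had an unadjusted p under 0.05, against 802; the labels do not give the numbers as a pairing, 6 of 12 same-numbered pairs shared a slide, 8 correlated above 0.1 and 4 mice correlated best with their own number.

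Small differences changed sign. Gsta3 was 0.0136 with processed signals, 0.0193 with median centring, 0.00531 with Cy5 alone, 0.0333 in the deposited table, 0.0261 as a mean over its probes and 0.0701 within slide 1. Gstm3 was 0.0134, 0.0453, 0.0147 and 0.045 in the first 4 of these settings, and Gstm1 was 0.0145 with median centring and 0.04 in the deposited table. Gsta4 was 0.098 and 0.00815 within slides 2 and 3, Gstm4 0.0725 and Gstt3 0.12 within slide 3, and Gstt3 0.0213 without GLU+GAL 1. The pi class difference was -0.49 within slide 1. The causes were not tested.

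Leaving out each mouse gave class differences of 0.06 to 0.23 (alpha), -0.03 to 0.07 (mu), -0.27 to -0.18 (pi) and -0.12 to -0.03 (theta). Single genes ran from 0.36 to 0.78 (Gsta2), -0.14 to -0.04 (Gsta3), -0.11 to -0.02 (Gsta4), -0.10 to -0.03 (Gstm1), 0.20 to 0.34 (Gstm2), -0.10 to -0.01 (Gstm3), -0.12 to -0.01 (Gstm4), -0.13 to -0.08 (Gstt1) and -0.12 to 0.02 (Gstt3).

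Of 45 pairs, 28 to 33 passed when a mouse was left out, 42 with median centring and 40 with processed signals, against 31. Within slides 3, 2 and 12 passed. The count of genes with another transferase in the nearest 1% was 9 without GLU+GAL 4 or 12. All 10 probes were well above background, so no value here is a bound. Keeping outlier-flagged spots, chosen after seeing the data, left 31 pairs and 1 gene.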
